A study of Prunus persica with 2 samples.

Results

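Of 26873 annotated genes of peach (Prunus persica) in the deposited gene table, 7214 were listed at exactly 0 FPKM in both libraries of wounded fruit, which is 26.8% of the annotated rows. They were chosen by these values alone, so the zeros describe the set and are not a finding about it. They are set against the 14268 annotated genes (53.1%) that reached 1 FPKM in at least 1 library; the other 5391 (20.1%) lay above 0 and under 1 FPKM in both. FPKM is the number of sequenced fragments scaled for transcript length and library depth.

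The treated library came from fruit wounds given 30 μL of a suspension of the yeast Pichia membranaefaciens, and the control library from wounds given 30 μL of sterilized water. Wound tissue was taken 3 days after treatment from fruit kept at 28 °C and 95% relative humidity. There is 1 library per treatment, so no replicate error exists and no test is given. All intervals below are exact (Clopper-Pearson) 95% intervals over genes; neighbouring and related genes are not independent, so the intervals cover counting error only. The cultivar and the age of the fruit are not known here. The tissue label could not be checked against marker genes, because the identifiers carry no names or products.

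A gene can lack reads in a tissue because it is used in another organ or stage, as many genes of pollen, seed, root or meristem are, or because its annotation is a prediction that is transcribed nowhere. Plant genomes hold many tandem arrays, in which copies of a gene lie side by side and often on the same strand. They also hold pseudogenes and remnants of transposable elements, which gather in the gene-poor stretches around the centromeres. Genes in such stretches are often packed in condensed chromatin. These are general facts of plant genomes and were not measured here.

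The depth worked out from the transcript tables was 25.1 M fragments (7.54 gigabases) in the treated library and 26.8 M fragments (8.04 gigabases) in the control library. Every one of the 7214 genes had 0 FPKM at each of its own annotated transcripts in both transcript tables. Where a gene value takes in all transcripts of its locus, this follows from the rule and is no second check. A gene with 3 fragments would stand at 0.113 FPKM in the treated and 0.106 FPKM in the control library at the members' median length of 1059 bases. That limit depends on length: it ran from 0.00517 to 1.11 FPKM over the members in the treated library, and from 0.00485 to 1.04 FPKM in the control library. It was under 0.1 FPKM for 3147 members (43.6%) in the treated library and for 3406 (47.2%) in the control library, and above 1 FPKM for 4 and 3 members. Below these limits the data cannot tell a low transcript from none. No gene that every cell uses could be looked up by name, and the sources used here do not say how reads that match several places were counted. The genes are therefore called listed at 0, not silent.

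Exact zeros far outnumbered genes with a few fragments. Counted on their own transcripts, 7486 annotated genes had no fragment in either library, against 805 with up to 1 fragment in the libraries together, 534 with over 1 and up to 2, and 372 with over 2 and up to 3. The 272 genes that make up the difference from 7214 carry a value above 0 in the gene table although their own transcripts are at 0; all 272 belong to an assembled locus, which can hold other transcripts too. Of the 7214, 250 also belong to an assembled locus, with a gene value of 0.

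Just outside the rule stood genes with a value in 1 library. The treated library alone was at 0 for 777 genes (2.89% of all annotated rows), and the control library alone for 787 (2.93%). Where the treated library was at 0, the control values had a median of 0.0456 FPKM and a highest value of 4.97 FPKM. Where the control library was at 0, the treated values had a median of 0.0475 FPKM and a highest value of 2.05 FPKM. At their own annotated transcripts, 610 of the 777 genes (78.5%) and 628 of the 787 (79.8%) had at most 3 fragments. There, most of these genes differ from the members by a few fragments. A gene value can also come from other transcripts of its locus, so this count does not bound the fragments behind it. Only 6 of the 777 and 3 of the 787 genes reached 1 FPKM. The nearly equal numbers are given with no comparison of treatments, since they rest on 1 library each.

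The 5 highest values opposite a 0 were on Pp05, Pp04, Pp02 and Pp01. The gene of 3 exons on the plus strand of Pp05 from 18303629 to 18304840 was listed at 0 in the treated and at 4.97 FPKM in the control library, but none of its own transcripts held a fragment, and another transcript overlaps it. The gene of 2 exons on the plus strand of Pp04 from 5881741 to 5882165 had 2.05 FPKM in the treated and 0 in the control library, with 0.370 fragments at its own transcript and another transcript over it. In these 2 loci the gene value is not carried by the annotated transcript itself. The other 3 were at 0 in the treated library, are overlapped by no other transcript and rest on more fragments. A gene of 6 exons on Pp04 from 23398099 to 23399993 had 0 and 3.24 FPKM (treated and control), with 45.6 control fragments. A gene of 4 exons on Pp02 from 1482810 to 1484878 had 0 and 1.92 FPKM, with 26.3 control fragments. A gene of 1 exon on Pp01 from 41314689 to 41315215 had 0 and 1.84 FPKM, with 26.0 control fragments.

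The genes listed at 0 were short and had few exons. Their longest annotated transcript had a median of 1059 bases, with the middle 80% between 384 and 2261, against a median of 1886 and a middle 80% between 873 and 3598.3 for genes at 1 FPKM or more. The median exon number was 2 among the genes at 0 and 5 among those at 1 FPKM or more. A single exon was found in 27.8% of the genes at 0 (26.7% to 28.8%), against 10.8% of genes at 1 FPKM or more (10.3% to 11.3%). Transcripts with 10 or more exons were 3.42% of the genes at 0 (3.02% to 3.87%), against 22.9% of genes at 1 FPKM or more. Genes above 0 and under 1 FPKM also had a median of 2 exons, but more of them had a single exon (30.8%, 29.6% to 32.1%) and more had 10 or more (7.66%, 6.96% to 8.40%) than among the genes at 0. Their median length was 1614 bases.

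Introns were also shorter. Over genes with 1 annotated transcript, the mean intron of a gene had a median of 203 bases at 0, against 309.5 bases at 1 FPKM or more. It was 208.5 bases in genes above 0 and under 1 FPKM, so short introns are not particular to the genes at 0. With exons and introns together, the annotated span had a median of 1540.5 bases in the genes at 0, against 3489 bases. The genes at 0 lay on the plus strand in 53.8% of cases (52.6% to 54.9%), against 50.97% (50.2% to 51.8%) of the genes at 1 FPKM or more. Genes above 0 and under 1 FPKM did so in 55.1% of cases (53.8% to 56.5%), so the higher share is not particular to the genes at 0.

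The share of genes at 0 was lower with each step in length in all 4 exon classes. Of all genes up to 500 bases, 61.6% were at 0, and of those over 3000 bases 6.57% (226 of 3438). Over 1500 and up to 2000 bases, the share at 0 was 27.3% with 1 exon, 28.8% with 2 to 3 exons, 19.2% with 4 to 9 and 8.96% with 10 or more. Within a length class, genes with 1 exon and with 2 to 3 exons had no fixed order. Up to 500 bases the shares were 56.9% (53.6% to 60.2%) with 1 exon and 66.2% (63.0% to 69.3%) with 2 to 3, while over 3000 bases they were 14.9% (9.999% to 21.1%) and 10.5% (8.21% to 13.1%). Short genes also give fewer fragments at any level, so length and detection move together here, and their parts in the zeros were not separated.

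**Figure D1:**
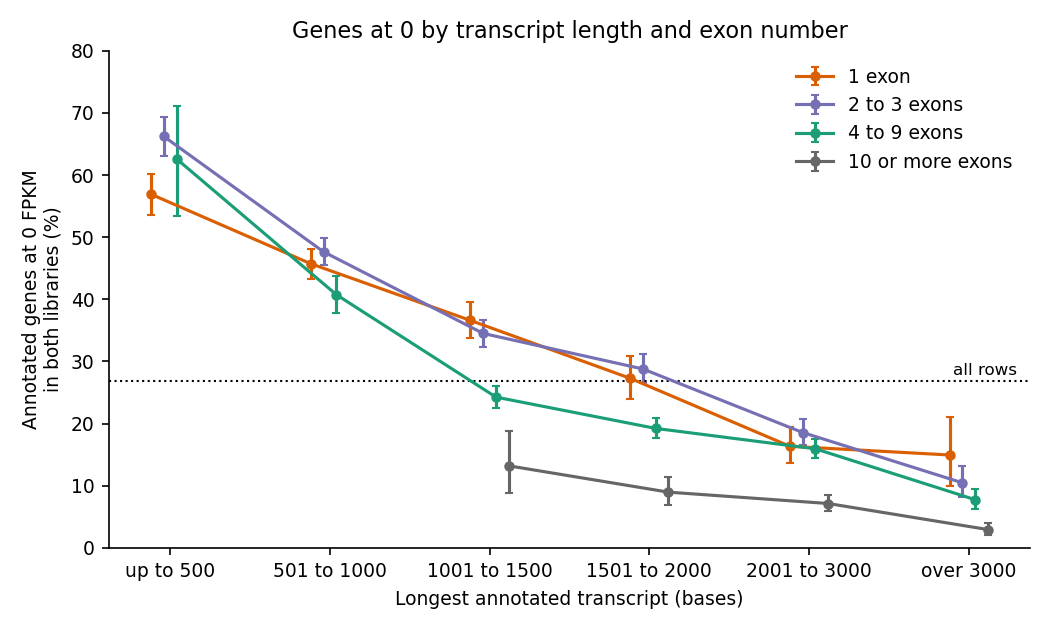
Share of annotated genes at 0 FPKM in both libraries (vertical axis, percent) by length of the longest annotated transcript (horizontal axis, bases), with 1 line per class of exon number and exact 95% intervals as bars; classes under 20 genes are left out and the dotted line is the share of all rows, 26.8%. All lines fall to the right, and genes with 10 or more exons lie lowest wherever they are shown.

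Taken by exact exon number, the share at 0 was 38.5% of genes with 1 exon, 37.1% with 2, 33.4% with 3, 23.3% with 5, 7.88% with 10 and 7.85% with 11 exons. Genes with 13 exons stood above both neighbours, at 13.5% (10.5% to 17.1%), 60 of 443 genes, against 32 of 492 genes with 12 exons (4.49% to 9.06%) and 14 of 348 with 14 exons (2.22% to 6.66%). This exon number was singled out after its value was seen. Of the 60 genes with 13 exons at 0, 23 shared an unbroken run of genes at 0 with another of them, and 7 lay in 1 run on Pp06.

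The gene models themselves differed. Just 1 annotated transcript was given for 91.2% of the genes at 0, against 55.5% of genes at 1 FPKM or more. For genes above 0 and under 1 FPKM it was 78.5%. Among genes with 1 transcript, its length was a multiple of 3 in 61.9% of the genes at 0 (60.7% to 63.0%), against 39.1% (38.1% to 40.2%) at 1 FPKM or more. Above 0 and under 1 FPKM the share was 46.1%. The annotation is not named here, so whether RNA reads shaped its models is unknown. A length in whole codons is what a model made of coding sequence alone has, without untranslated ends, although other lengths meet it by coincidence. Within models of 1 transcript in whole codons, the genes at 0 still had a median of 867 bases and 2 exons (n = 4068), against 1491 bases and 3 exons (n = 3097). There the single-exon share was 30.2% against 21.7%, a smaller gap than over all models. Of all such models, 44.6% were at 0, compared with 26.1% of 1-transcript models of other lengths and 7.82% of genes with 2 or more transcripts. The 637 genes at 0 with 2 or more annotated transcripts were longer, with a median of 1804 bases and 5 exons, and 1.57% of them had a single exon.

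Many genes at 0 had no counterpart in a second annotation of peach. RefSeq genes of the Prunus_persica_NCBIv2 assembly were paired with the gene rows by position on the 8 pseudomolecules, since none of the identifiers (0) matched. The files name no genome build, but 17294 of 26811 genes (64.5%) coincided with a RefSeq gene over at least 80% of both spans, and the share was 62.3% to 67.3% on each pseudomolecule. No RefSeq gene overlapped 1900 of 7189 genes at 0 (26.4%, 25.4% to 27.5%), against 257 of 14251 genes at 1 FPKM or more (1.80%, 1.59% to 2.04%). A RefSeq pseudogene, a gene copy judged unable to make its protein, was the best match of 679 genes at 0 (9.44%), against 233 (1.63%). Pseudogenes that RefSeq lists as transcribed are included in these counts. A protein-coding RefSeq gene was the best match of 61.6% of the genes at 0, against 94.1%. Genes above 0 and under 1 FPKM lay between, with 11.1% without a RefSeq gene and 4.95% at pseudogenes. RefSeq models draw on RNA reads as well as on protein likeness, so the absence of a model is not independent of transcription in other tissues.

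**Figure D2:**
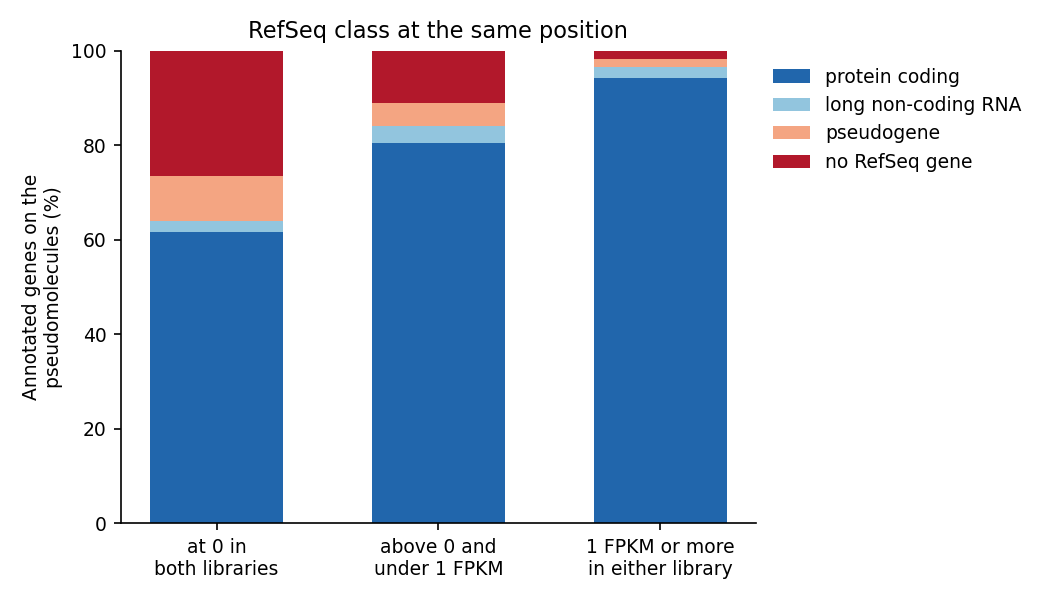
Percent of annotated genes on the pseudomolecules (vertical axis) by the class of the RefSeq gene that overlaps each best, as stacked bars for genes at 0 in both libraries, genes above 0 and under 1 FPKM, and genes at 1 FPKM or more. The part without a RefSeq gene is 26.4%, 11.1% and 1.80% in that order.

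The difference was present in all 6 length classes. Up to 500 bases, 61.1% of genes at 0 had no RefSeq gene, against 15.6% of genes at 1 FPKM or more. Over 1500 and up to 2000 bases the shares were 9.16% and 0.632%, and over 3000 bases 3.54% (1.54% to 6.86%) and 0.320% (0.138% to 0.629%). Pseudogene matches were likewise 10.9% of the genes at 0 and 2.29% of those at 1 FPKM or more over 1000 and up to 1500 bases. Read the other way, 69.0% of annotated genes without a RefSeq gene were at 0. So were 62.8% of those at pseudogenes not listed as transcribed, and 24.5% of those at pseudogenes that RefSeq lists as transcribed. Of genes at a protein-coding RefSeq gene over 80% of both spans, 16.8% were at 0. These 2791 genes, which both annotations hold in nearly the same place, had a median of 1513 bases and 3 exons, against 2011 bases and 6 exons for such genes at 1 FPKM or more.

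The genes at 0 lay on all 8 pseudomolecules, which are named Pp01 to Pp08. The share was highest on Pp04, with 883 of 2897 genes (30.5%, 28.8% to 32.2%), followed by Pp03 with 28.4% and Pp08 with 28.1%. It was lowest on Pp05, with 600 of 2464 (24.4%, 22.7% to 26.1%), and on Pp01 with 1484 of 5883 (25.2%). The intervals of neighbours in this order overlap, and those of Pp04 and Pp05 do not. On unplaced scaffolds 25 of 62 genes were at 0 (40.3%, 28.1% to 53.6%).

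Along the pseudomolecules the share changed more than between them. Over all 8 together the share was 26.0% in the first of 10 equal parts of the length, 37.8% in part 4 and 19.9% in part 10. The middle, from 0.3 to 0.7 of the length, held 31.5% at 0 (30.5% to 32.5%), against 24.7% outside it (24.1% to 25.3%). The middle was higher on 7 pseudomolecules, by most on Pp02, with 35.4% in the middle and 23.7% outside. On Pp01 it was not, with 24.4% in the middle and 25.6% outside. The highest share stood in part 3 on Pp07 (43%) and Pp08 (40%), in part 4 on Pp01 (34.1%), Pp05 (39.8%) and Pp06 (44.1%), in part 5 on Pp02 (50.6%) and Pp03 (46.2%), and in part 7 on Pp04 (42.3%). Among genes of 2 or more exons and at least 1000 bases the middle still held more, 21.1% against 16.4%.

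**Figure D3:**
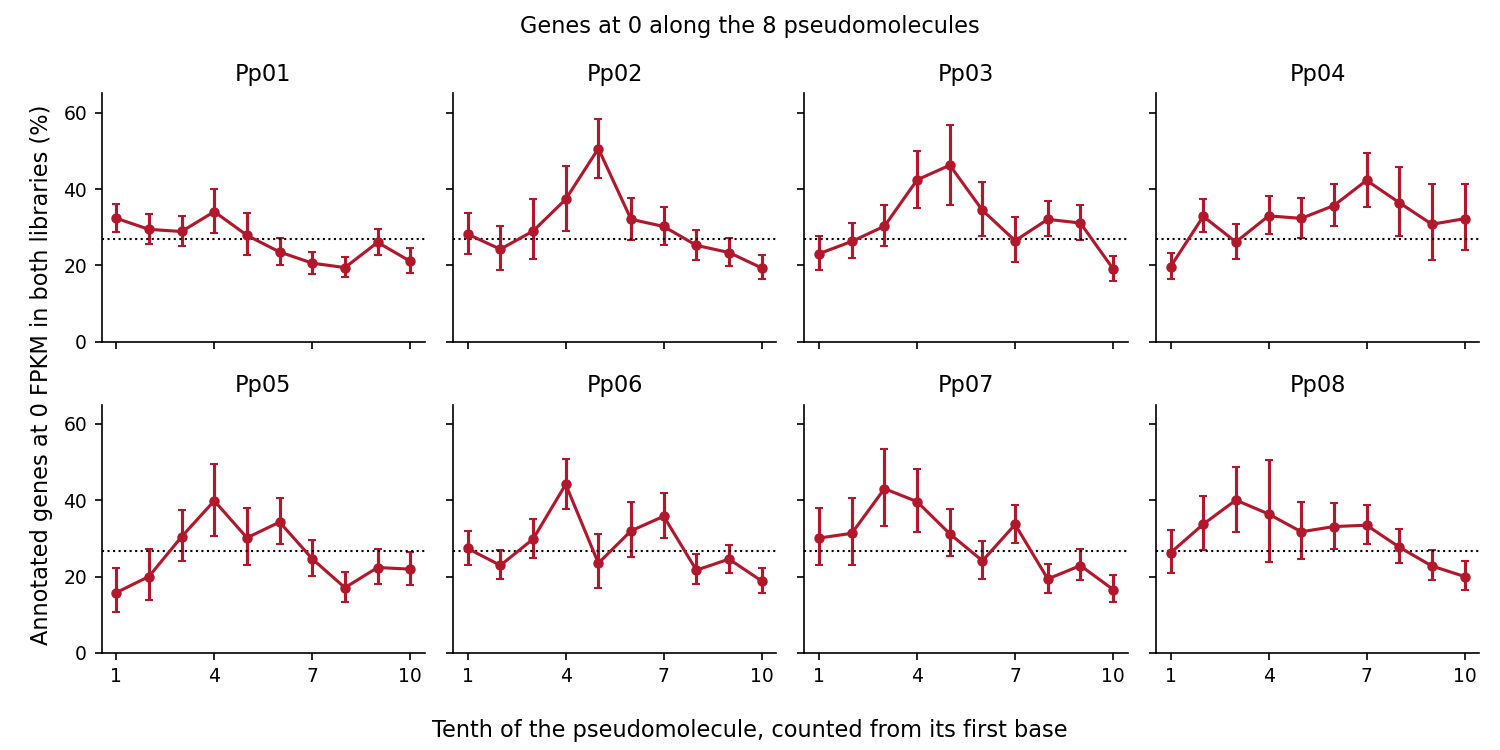
Share of annotated genes at 0 FPKM in both libraries (vertical axis, percent) in each of 10 equal parts of the 8 pseudomolecules (horizontal axis, along the length), with exact 95% intervals and the share of all genes as a dotted line, 26.8%. Each panel is highest between parts 3 and 7, most of all Pp02 at 50.6%, and the last part lies below the dotted line everywhere except on Pp04.

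Genes at 0 were a larger part of the genes where genes are sparse. In windows of 1 Mb with up to 50 annotated genes 33.3% were at 0, with over 50 and up to 100 genes also 33.3%, with over 100 and up to 150 genes 28.1%, and with over 150 genes 22.9%. Spearman's rho between the number of genes and the share at 0 was -0.48 over 229 windows, given as a description, since neighbouring windows share their surroundings. Over the 225 windows with at least 20 genes the share ran from 2% to 60.9%, with a median of 27.1%; it passed 50% in 9 windows and was under 10% in 3. The windows at the ends of this list were chosen after their values were seen. The highest were on Pp02 from 12 to 13 Mb, with 28 of 46 genes at 0 (60.9%, 45.4% to 74.9%), and on Pp02 from 8 to 9 Mb, with 19 of 35 (54.3%). Among the 5 highest, the one with the most genes was on Pp01 from 39 to 40 Mb, with 50 of 93 (53.8%, 43.1% to 64.2%). The lowest was the end of Pp03, from 27 Mb on, with 1 of 50 genes at 0 (2%, 0.0506% to 10.6%).

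Many genes at 0 had another as neighbour, although most were followed by a gene that was not at 0. After a gene at 0, the next annotated gene was at 0 in 3108 of 7188 cases (43.2%, 42.1% to 44.4%), against 2646 of 14244 (18.6%, 17.9% to 19.2%) after a gene at 1 FPKM or more. The share over all genes was 26.8%. For the gene 2 places on the shares were 36.1% and 22.3%, 5 places on 31.5% and 24.4%, and 100 places on 27.7% and 26.4%, so most of the difference lay within a few genes.

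**Figure D4:**
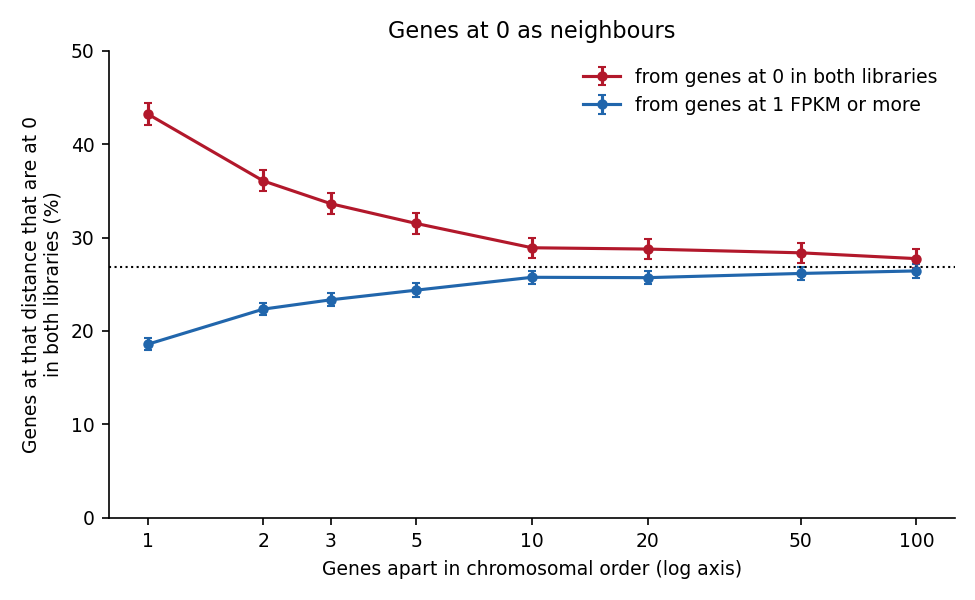
Share of genes at 0 FPKM in both libraries (vertical axis, percent) at a given number of genes along the pseudomolecule (horizontal axis, log scale), counted from genes at 0 and from genes at 1 FPKM or more, with exact 95% intervals; the dotted line is the share of all genes, 26.8%. The lines start at 43.2% and 18.6% for the next gene and come close to each other by 10 genes.

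The same order was found on each pseudomolecule and at each gene density. Per pseudomolecule, the next gene was at 0 after 39.3% (Pp05) to 46.9% (Pp04) of the genes at 0, against 17.4% (Pp05) to 20.4% (Pp04) of the genes at 1 FPKM or more. In windows with over 150 genes the shares were 40.1% and 15.8%, and in windows with up to 50 genes 49.3% and 24.9%. It was larger for a next gene on the same strand, with 47.4% and 18.8%, than for one on the other strand, with 37.1% and 18.3%. With a gap of up to 1 kb between the genes the shares were 36.8% and 12.5%, and with a gap over 10 kb 51.7% and 30.7%.

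Likeness in structure was more frequent between neighbouring genes at 0 than between neighbours at 1 FPKM or more, although most pairs at 0 differed in exon number and in length. Both genes lay on the same strand in 65.2% of 3108 pairs of genes at 0, against 51.2% of 8806 pairs of genes at 1 FPKM or more. The exon number was the same in 32.4% of the pairs at 0 and in 10.5% of the pairs at 1 FPKM or more, and the lengths were within 10% of each other in 18.1% and 12.03%. All 3 features were shared by 296 pairs at 0 (9.52%, 8.51% to 10.6%), against 124 pairs at 1 FPKM or more (1.41%, 1.17% to 1.68%). Few exons make equal numbers more frequent. Among pairs with 4 exons or more on both sides, all 3 features were shared by 15.3% of 478 pairs at 0 (12.2% to 18.8%), against 1.80% of 3773 pairs at 1 FPKM or more (1.40% to 2.28%). That class has no upper bound, so exon numbers within it need not match between the groups. Where both genes had 1 exon, the shares were 32.5% of 369 pairs at 0 (27.8% to 37.6%) and 11.5% of 165 pairs at 1 FPKM or more (7.08% to 17.4%). The gap between the genes had a median of 3620 bases in pairs at 0, against 1188.5 bases in pairs at 1 FPKM or more. Sequence likeness of these neighbours was not analysed here, and copies that are nearly identical can share reads.

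Counted as unbroken runs, the 7189 genes at 0 on the pseudomolecules fell into 4081 runs. Of these, 2542 runs were of 1 gene (35.4% of the genes), 849 of 2 genes, 500 of 3 to 4, 165 of 5 to 9 and 25 of 10 or more. The runs of at least 5 held 1296 genes (18.0%) and those of 10 or more 296 genes. Pp03 and Pp04 had 5 runs of 10 or more each, Pp01 had 4, Pp02, Pp06 and Pp08 had 3 each, and Pp05 and Pp07 had 1 each. Length and single-exon share differed little between lone genes and the longest runs, with a median of 1071 bases and 28.9% single exons in runs of 1, and 1029 bases and 29.7% in runs of 10 or more. Pseudogene matches were 6.85% of the genes in runs of 1, 9.89% in runs of 2, 10.6% in runs of 3 to 4, 12.1% in runs of 5 to 9 and 13.5% in runs of 10 or more. Genes without a RefSeq gene were 28.1%, 26.9%, 24.98%, 23.2% and 28.7% in the same order of run length.

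The 5 longest runs were chosen by a rule on their number of genes and then their span. The run on Pp03 from 16764046 to 17130062 had 15 genes over 366 kb, 12 on the plus and 3 on the minus strand, with 1 to 6 exons. Of the run's genes, 10 matched a protein-coding RefSeq gene, only 4 of them over at least 50% of both spans. In the run, 5 genes had no RefSeq gene. The genes next to it were low as well, with 0.0434 FPKM in the treated and 0.475 FPKM in the control library before it, and 0.353 and 0.428 FPKM after it. It holds the longest transcript of all genes at 0, 23097 bases.

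The run on Pp06 from 1366973 to 1607825 had 15 genes over 241 kb, 12 of them on the minus strand. This run was of many-exon genes: 10 of the 15 had 12 or 13 exons, the median length was 1807 bases, and 11 coincided with a protein-coding RefSeq gene over at least 50% of both spans. Transcribed genes flanked it closely. The gene 2.67 kb before it had 3.03 FPKM in the treated and 4.69 FPKM in the control library, and the gene 2.44 kb after it 9.10 and 9.79 FPKM.

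A second run on Pp06, from 21333094 to 21515204, had 15 genes over 182 kb, all 15 on the minus strand. Of these, 6 had 2 exons and 5 had 5 exons. Of the run's genes, 8 matched a protein-coding RefSeq gene, 6 of them over at least 50% of both spans. In the run, 4 genes matched a pseudogene. The gene before it had 0.0845 FPKM in the treated and 0.153 FPKM in the control library, and the gene after it 0 and 0.240 FPKM.

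The run on Pp01 from 1977653 to 2132557 had 15 genes over 155 kb, 13 on the plus strand, with a median length of 1700 bases, and 11 coincided with a protein-coding RefSeq gene over at least 50% of both spans. By order of start, the gene before it had 0.151 FPKM in the treated and 0.408 FPKM in the control library. The gene after it had 0.0291 and 0 FPKM. The gene before it lies within the span of a gene on the minus strand, from 1968259 to 1971607. That longer gene ends nearer to the run and had 12.2 FPKM in the treated and 14.5 FPKM in the control library.

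The run on Pp02 from 12702086 to 13133497 had 14 genes over 431 kb, 10 on the minus strand, with a median of 3.5 exons. It falls partly in the 1 Mb window with the highest share of genes at 0. Of the run's genes, 10 matched a protein-coding RefSeq gene, only 3 of them over at least 50% of both spans. In the run, 4 genes had no RefSeq gene. The gene before it had 1.81 FPKM in the treated and 1.28 FPKM in the control library, and the gene after it 7.92 and 8.70 FPKM.

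**Figure D5:**
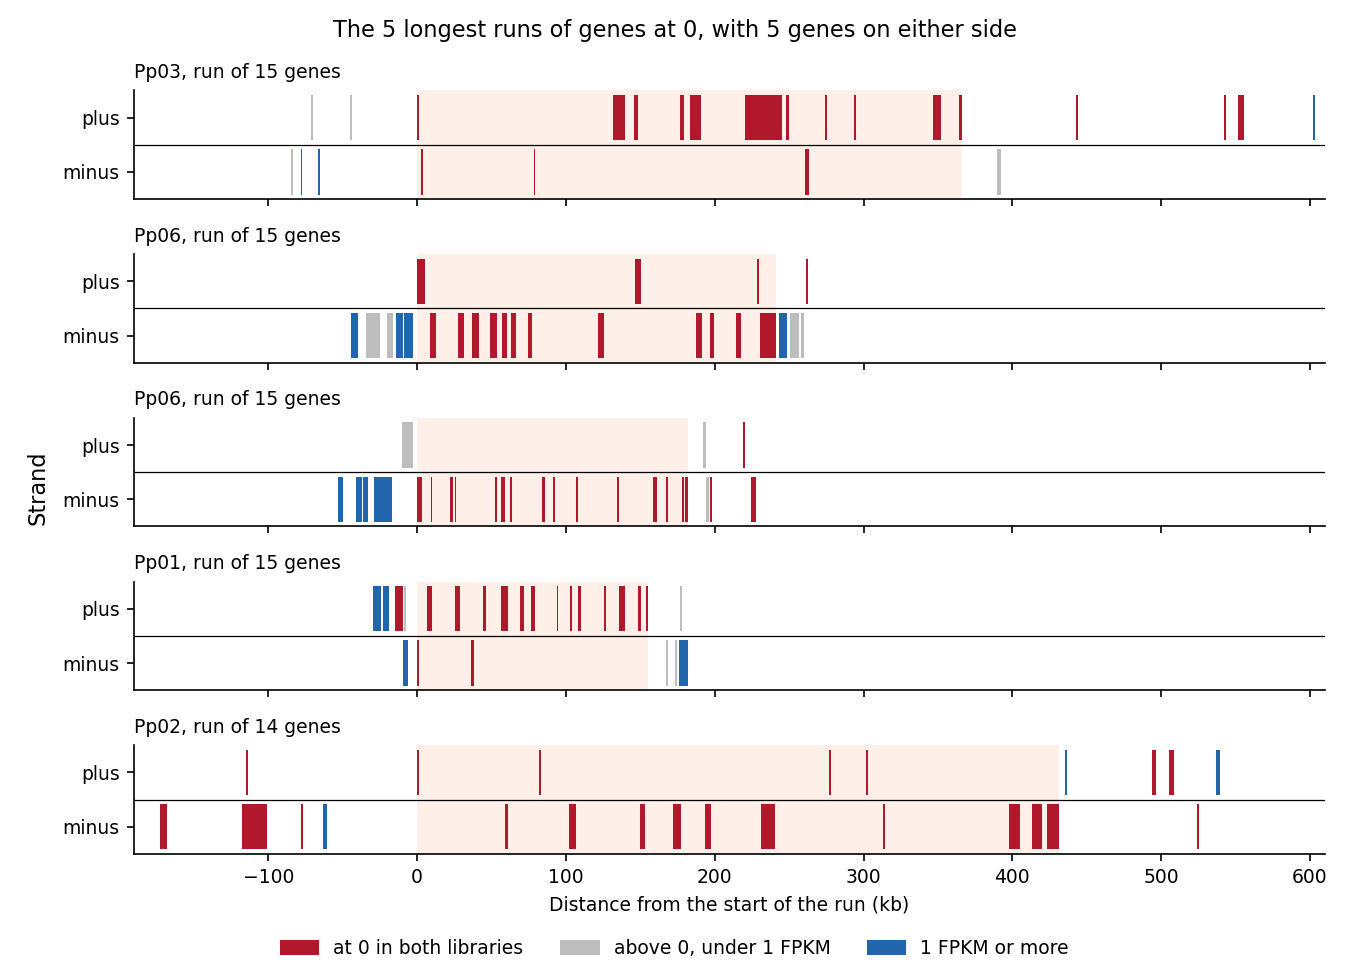
Map of the 5 longest runs of genes at 0 in both libraries, with 5 genes on either side; the horizontal axis is the distance from the start of the run in kb, the vertical position is the strand, boxes are genes (short ones widened to be seen), colours give their level, and the shaded part is the run. The runs span 155 to 431 kb, and in the second run on Pp06 all 15 boxes lie on the minus strand.

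The 5 genes at 0 with the most exons all lay in runs of 3 or 4. The gene with 38 exons on the minus strand of Pp04 from 5556449 to 5570664 has a longest transcript of 4834 bases and 12 annotated transcripts, all at 0, and 3 fragments would have given 0.0247 FPKM in the treated and 0.0232 FPKM in the control library. The gene with 28 exons from 5528126 to 5546662 belongs to the same run of 4 genes at 0, and the gene before that run had 24.9 FPKM in the treated and 22.8 FPKM in the control library. Both overlap a protein-coding RefSeq gene with a shared part under 50% of the longer span. A gene with 25 exons on Pp02 from 1504362 to 1512795 matched a RefSeq pseudogene and one with 24 exons on Pp05 from 16651856 to 16659429 a pseudogene listed as transcribed. A gene with 22 exons on Pp03 from 25295804 to 25303394 coincided over 95.9% with a protein-coding RefSeq gene.

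The longest transcripts at 0 give the lowest limits. On Pp03, in the run of 15 described above, the gene from 16984261 to 17008922 has 3 exons and 23097 bases, and 3 fragments would have given 0.00517 FPKM in the treated and 0.00485 FPKM in the control library. On Pp01 a gene of 19 exons and 7836 bases, from 10602602 to 10612696, stood alone at 0. The gene before it had 0.790 FPKM in the treated and 0.999 FPKM in the control library, and the gene after it 68.5 and 61.9 FPKM. On Pp06 a gene of 5 exons and 5844 bases, from 4210650 to 4217210, also stood alone, between genes with 18.6 and 16.1 FPKM before it and 18.8 and 19.95 FPKM after it (treated and control). On Pp08 a single-exon gene of 6005 bases, from 4384709 to 4390713, shared 18.3% of the longer span with its RefSeq gene, and on Pp03 a single-exon gene of 5708 bases, from 6243072 to 6248779, had no RefSeq gene. The gene that follows this one, past the end of a run of 4, had 152 FPKM in the treated and 136 FPKM in the control library.

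Few of the genes at 0 had another transcript over them, counted whatever its own level. Another transcript, of another gene or newly assembled, overlapped the span of 409 of the 7214 (5.67%), against 4230 (29.6%) of the longer genes at 1 FPKM or more. A newly assembled isoform of the gene itself also counts here, so these shares do not describe overlap by other genes alone. Such isoforms are built from reads, and a gene chosen for a value of 0 can hardly have one. The lower shares at 0, above all on the same strand, therefore follow in part from the rule of choice. On the same strand the shares were 1.37% and 19.96%, and on the opposite strand 4.34% and 12.3%. A transcript at 1 FPKM or more lay over 196 genes at 0, on the same strand for 35 and on the opposite strand for 161. Whether the libraries kept strand is unknown here, so reads at these 161 loci cannot be assigned to a strand. For the other genes at 0, no transcript at 1 FPKM or more overlapped the annotated span.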

How the data were processed

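RNA from wound tissue was sequenced as 1 library per treatment. Per the submitters' processing notes, HISAT2 and HTSeq 0.6.1 were used, with no role or order given; genome build, annotation and assembler are not named in what was read here. The authors deposited FPKM in 1 gene table (27806 rows, 26873 annotated) and 1 transcript table per library (51199 rows). Beside FPKM, the authors deposited a coverage per transcript, read here as mean depth per base. Coverage divided by FPKM gave the gigabases per library, and 300 bases, the most frequent product of coverage and length in barely covered transcripts, was taken as 1 fragment.

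Each gene took its span from all its annotated transcripts, and exon number and length from the longest. Genes were ordered by start on the pseudomolecules; positions count from 1. RefSeq genes were paired by the largest overlap as a share of the longer span, on either strand, because that table gives none. With 1 library per group no test was run; shares carry exact 95% intervals (SciPy 1.17.1, pandas 2.3.3, Python 3.11.15). The code was tested on simulated labels over the real gene order. Named loci were the 5 longest runs, the 5 genes with most exons, the 5 longest, and the 5 highest values opposite a 0; others were chosen after seeing values. The set, the lists and the comparisons were chosen with earlier results of these data known.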

Additional observations from a re-analysis of the deposited data

How the results depend on the processing

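The count of 7214 genes at 0 stayed within 1.5 times under its 6 alternatives, from 6805 (without overlapped genes) to 9160 (under 0.1 FPKM in both libraries). For the other results, 36 of 57 alternative values stayed within the counting error of the main one, 4 of them by construction, 21 moved beyond it, and none (0) changed direction. The difference between pseudomolecules was the highest minus the lowest share, chosen anew in each setting, so it could not change direction. The single-exon share was 16.97 percentage points higher in genes at 0 than in genes at 1 FPKM or more. It was 15.8 points higher with members taken by their own transcripts, 14.97 without overlapped genes, 11.5 with all rows above 0 compared, 19.5 with rows at 5 FPKM or more, 14.9 with genes of at least 500 bases, and 8.52 with models of 1 transcript in whole codons. The median length was lower by 827 bases (-827). It differed by -698 with members under 0.1 FPKM, by -755 with all rows above 0, by -685 with genes of at least 500 bases, and by -624 with models in whole codons. The middle of the pseudomolecules exceeded the rest by 6.80 points, and by 4.66 with genes of at least 2 exons and 1000 bases. The next gene was at 0 more often by 24.7 points after a gene at 0. That was 23.3 with members under 0.1 FPKM, 22.4 with all rows above 0, and 28.6 on the same strand. It was 23.0 among genes with at least 2 exons, and 18.1 among models in whole codons. In these subsets the next gene is the next one kept, which need not be adjacent, so they are not the same measure. The share without a RefSeq gene was higher by 24.6 points, by 21.4 with members under 0.1 FPKM, 22.1 with all rows above 0, 18.3 with genes of at least 500 bases, 32.3 with an overlap of 50% required and 35.9 with 80%. The models in whole codons, the 2 exons with 1000 bases and all RefSeq alternatives were chosen after seeing the data. The causes were not tested. Shares by pseudomolecule and position do not use the compared rows, so the filter on these could not change them. The product lists were not run, because no names or products could be paired with the identifiers. No paired analysis was possible because there is a single library per treatment, which also means that none could be left out. A 0 rests on fewer possible fragments in a short gene, so length and detection cannot be told apart at this depth.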
